A study of Mus musculus with 8 samples.

Results

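The genes described here are 10 regulators of the G1 phase of the cell cycle: the D-type cyclins Ccnd1, Ccnd2 and Ccnd3, their kinases Cdk4 and Cdk6, the kinase inhibitors Cdkn1a, Cdkn1b, Cdkn1c and Cdkn2c, and Rb1. They were chosen by name from the 24108 named genes of the count table, and all 10 were found. All 10 passed the expression filter, which kept 13989 genes for testing. Each gene was read in 4 populations of CD4 T cells from mouse mesenteric lymph node, the node that drains the intestine, with 2 libraries per population.

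D-type cyclins are made when a cell receives growth signals, and they activate CDK4 and CDK6. The active kinases phosphorylate the retinoblastoma protein RB1, which releases E2F transcription factors and lets the genes of DNA replication be transcribed. The INK4 inhibitors, here p18 from Cdkn2c, bind CDK4 and CDK6 directly, whereas the Cip/Kip inhibitors p21, p27 and p57, from Cdkn1a, Cdkn1b and Cdkn1c, act on cyclin and kinase complexes. In T cells these inhibitors are known for holding resting cells out of the cycle and for limiting division after activation.

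All mice were Foxp3 DTR-GFP/Thy1.1, CD4CreER/wt and R26 lsl-tdTomato/wt. Foxp3 encodes the lineage factor of regulatory T (Treg) cells, and its alleles here carried the diphtheria toxin receptor with GFP, or Thy1.1. Tamoxifen activates the Cre, which the CD4 label places in T cells of that lineage, and thereby switches on the red protein tdTomato. The mice were raised on AVNM, an abbreviation left unexplained in the labels, with an amino acid-defined diet, and received tamoxifen followed by about 3 weeks with diphtheria toxin. They then received chow and SPF fecal microbiota, and cells were sorted 12 days later. All 4 populations share this history. Within it, the design separates cells by the tdTomato mark and by the Foxp3 reporter they later carried. The mark is meant for CD4 T cells that lay outside the thymus without Foxp3 at the time of tamoxifen. Only the GFP allele carried the toxin receptor, so for marked Thy1.1 cells the toxin does not secure the absence of Foxp3 then. The populations are tdTomato-negative Thy1.1, tdTomato-positive Thy1.1, tdTomato-negative GFP and tdTomato-positive GFP cells. Whether the paired libraries stem from different animals is not in the labels. Every p-value here therefore rests on library-to-library spread, which may be technical.

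Library totals lay between 38085686 and 47908198 counts. The 6 T and Treg cell markers found in the table, Cd3e, Cd4 and Foxp3 among them, summed to 3240 to 4690 CPM (the usual depth-scaled count, with TMM factors), with none at 0 in any library. Markers of other cells were uneven. The 9 myeloid and dendritic markers summed to 159 and 137 CPM in tdTomato-positive GFP cells, 198 and 86.1 CPM in tdTomato-negative GFP cells, and 64.9 to 79.1 CPM in the 4 Thy1.1 libraries, with H2-Ab1 at 0 in all 8. Cst3 alone gave 129 and 134 CPM of the tdTomato-positive GFP sums, where 4 and 5 of the 9 markers were at 0, and 59.8 to 77.4 CPM of the Thy1.1 sums. H2-Aa was at 34 CPM in tdTomato-negative GFP library 3 and at no more than 1.31 CPM in the others. Siglech and Flt3 were at 36.8 and 7.2 CPM in that library and at no more than 1.19 and 0.148 CPM in the others. The 4 erythroid markers found summed to 47.5 CPM in tdTomato-positive GFP library 3 and to at most 5.37 CPM elsewhere. The 8 B cell markers summed to 8.81 and 19.1 CPM in tdTomato-positive GFP cells and to 24.6 to 46.1 CPM elsewhere, with Pax5 at 0 in 2 of 8 libraries. The 6 thymocyte markers summed to 28.9 and 27 CPM in tdTomato-positive GFP cells and to 71.9 to 90 CPM elsewhere, with Rag1 at 0 in all 8. Cd1d1 alone gave 28.9 and 25.8 CPM of the former and 67.3 to 88.9 CPM of the latter. The 7 CD8 T and NK cell markers summed to 12.7 to 46 CPM, with the highest sum in tdTomato-negative GFP library 3. The 5 plasma cell markers summed to 172 to 330 CPM, of which Xbp1 alone gave 171 to 330 CPM. The 8 stromal and epithelial markers summed to 157 to 315 CPM, of which Pecam1 gave 98.1 to 304 CPM. The part of these cells in the results below was not tested. These are bulk samples, so fewer cells of a type and less RNA per cell cannot be told apart.

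Levels per length showed which genes supplied most of the G1 RNA as counted. In RPKM (CPM per kilobase of exon), tdTomato-positive GFP cells ranked Ccnd2 at 72, Rb1 at 62, Cdk4 at 58.6 and Ccnd3 at 56.5, followed by Cdkn2c at 23.8, Cdk6 at 9.83, Cdkn1b at 6.09 and Cdkn1a at 5.27. Ccnd1 was at 0.44 RPKM and Cdkn1c had no read. The libraries of the neighbours Rb1 and Cdk4, Cdk4 and Ccnd3, and Cdkn1b and Cdkn1a overlapped, so their order within these pairs is not fixed. These levels include reads that genes with overlapping exons could share. With every Lpar6 count taken off, Rb1 was left at 153 and 160 of 374 and 372 CPM in tdTomato-positive GFP cells. With every Tspan31 count taken off, Cdk4 was left at 130 and 107 of 203 and 178 CPM there. The ranks of Rb1 and Cdk4 thus depend on how shared reads are assigned. In the other 3 populations the leading 4 genes were the same, with both cyclins ahead of Cdk4 and Rb1, but Cdkn2c stood at only 2.02 RPKM in tdTomato-negative Thy1.1, 4.78 in tdTomato-positive Thy1.1 and 7.81 in tdTomato-negative GFP cells. Cdkn1a was at 0.382, 0.368 and 1.31 RPKM in the same 3 populations. Neighbours in rank that overlapped there were Ccnd2 with Ccnd3 and Cdkn1a with Ccnd1 in both Thy1.1 populations, Cdkn2c with Cdkn1c in tdTomato-negative Thy1.1, Cdkn1b with Cdk6 in tdTomato-positive Thy1.1, and Cdk4 with Rb1, Cdk6 with Cdkn2c and Cdkn2c with Cdkn1b in tdTomato-negative GFP cells.

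**Figure D1:**
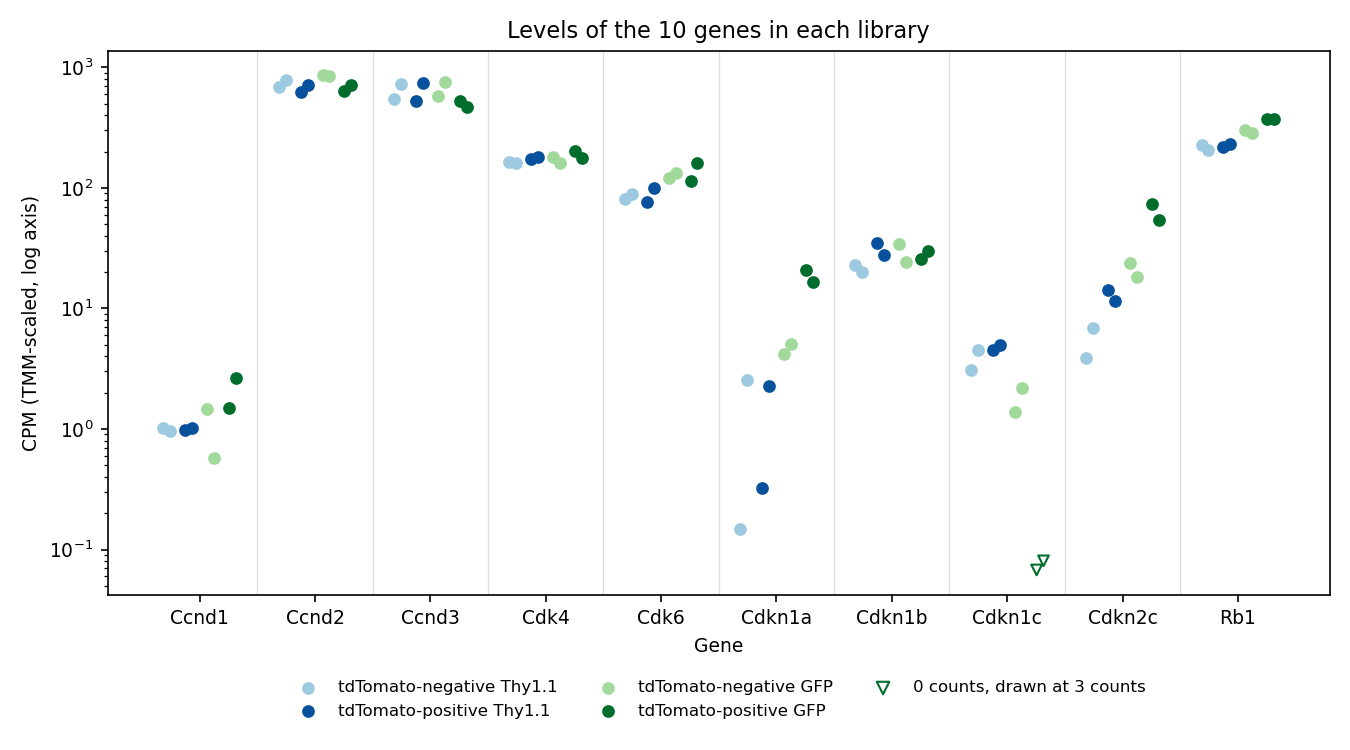
CPM of each of the 10 genes in each of the 8 libraries, on a log axis; each point is 1 library, colours mark the populations, and open triangles stand for a count of 0 drawn at the level of 3 counts. Cdkn2c, Cdkn1a and Rb1 lie highest in both tdTomato-positive GFP libraries, Cdkn1c is at 0 in both, and the points for Ccnd2 and Cdk4 span less than those for Cdkn1a.

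Promoter sequences are shown for the 2 inhibitors with the widest range of levels among the genes with a read in every library, Cdkn2c and Cdkn1a. RefSeq windows (build GRCm38.p6) matched 6 of the 10 genes, Ccnd3, Cdk4, Cdk6, Cdkn1a, Cdkn1b and Cdkn2c, with 9 windows in all. Each sequence is the 250 bases before an annotated start site, 5′ to 3′ on the gene's strand. Capitals mark GC boxes (GGGCGG on either strand, a site of Sp family factors) and, in the upstream window of Cdkn1a, the p53 core pair, CATG on both sides of 6 free bases.
Cdkn2c upstream window, chr4:109666757-109667006, minus strand: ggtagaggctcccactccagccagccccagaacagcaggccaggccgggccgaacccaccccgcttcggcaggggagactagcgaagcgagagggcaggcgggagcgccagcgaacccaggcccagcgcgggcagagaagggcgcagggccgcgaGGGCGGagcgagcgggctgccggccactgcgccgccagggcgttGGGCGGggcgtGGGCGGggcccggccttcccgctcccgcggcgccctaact
Cdkn1a upstream window, chr17:29090729-29090978, plus strand: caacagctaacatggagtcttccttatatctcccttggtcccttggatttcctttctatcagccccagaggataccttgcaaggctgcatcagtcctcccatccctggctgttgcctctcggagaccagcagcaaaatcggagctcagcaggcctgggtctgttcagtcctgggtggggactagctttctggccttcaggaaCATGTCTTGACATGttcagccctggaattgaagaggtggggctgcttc
Cdkn1a downstream window, chr17:29093519-29093768, plus strand: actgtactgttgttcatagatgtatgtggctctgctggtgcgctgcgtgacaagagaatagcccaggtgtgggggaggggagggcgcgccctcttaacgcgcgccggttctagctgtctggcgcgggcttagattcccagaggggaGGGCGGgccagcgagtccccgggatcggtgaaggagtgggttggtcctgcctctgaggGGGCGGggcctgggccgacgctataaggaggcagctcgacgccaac
The upstream Cdkn2c window holds 3 GC boxes, at -95, -51 and -40 relative to the start site, and 77.2% of its bases are G or C. Cdkn2c also has a downstream window, chr4:109665373-109665622, which is not printed. It holds no GC box, and 42.8% of its bases are G or C. The downstream Cdkn1a window holds 2, at -104 and -46. GC boxes occur in 32.7% of 32851 RefSeq promoter windows of this length. The paired p53 core lies at -48 to -35 of the upstream Cdkn1a start site and occurs in 0.49% of windows. Searched on both strands, the E2F letters TTTCGCGC, TTTGGCGC, TTTCCCGC and TTTGCCGC occur in 1.86% of all windows and in none of the 9 of these genes. The forkhead letters TGTTTAC, in 3.17% of all windows, occur in 1 of the 9, upstream of Ccnd3. A match describes letters only, and the counts do not say which start site the cells used.

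The comparison of GFP with Thy1.1 cells among tdTomato-positive cells asks how marked cells of the 2 reporters differ. In GFP cells the INK4 inhibitor Cdkn2c rose 4.97-fold, Rb1 rose 1.65-fold as counted, and the imprinted Cip/Kip inhibitor Cdkn1c fell to no detected read. The other 7 genes did not pass. With edgeR, 3 of 10 genes passed an adjusted p of 0.05, 2 higher and 1 lower, where 14.8% of all genes tested passed, 8.01% higher and 6.82% lower. At an unadjusted p under 0.05 it was 5 of 10, against 29.9%. The libraries of both populations did not overlap for 7 of the 10 genes, against 59% of all genes, so separation by itself marks little here.

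Cdkn2c, the gene of p18, was at 73.5 and 54.3 CPM in tdTomato-positive GFP cells and at 14.2 and 11.5 CPM in tdTomato-positive Thy1.1 cells. Among tdTomato-negative cells it was at 23.9 and 18.1 CPM with GFP and at 3.89 and 6.93 CPM with Thy1.1. The 4 populations did not overlap, in the order tdTomato-negative Thy1.1, tdTomato-positive Thy1.1, tdTomato-negative GFP and tdTomato-positive GFP. Between the reporters in tdTomato-positive cells its log2 fold change was 2.31 ± 0.32 (SE of the model, n = 2 libraries each; edgeR adjusted p = 0.0044), and the call held in all 8 fits that left out a library, with adjusted p from 0.00653 to 0.0497. No annotated exon of another gene overlaps Cdkn2c.

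Cdkn1c, the gene of p57, shares 625 of its 2039 exon bases with the antisense gene Gm44732, which was not counted separately. Cdkn1c is imprinted and lies in a cluster of imprinted genes. Both tdTomato-positive GFP libraries had 0 counts, which allows up to 0.0677 and 0.0806 CPM. tdTomato-positive Thy1.1 cells had 222 and 217 counts (4.54 and 4.96 CPM), tdTomato-negative Thy1.1 cells had 145 and 192 (3.07 and 4.48 CPM), and tdTomato-negative GFP cells had 64 and 99 (1.38 and 2.18 CPM). The 2 libraries without a read thus stood apart from the 6 others, and the tdTomato-negative GFP pair lay below all 4 Thy1.1 libraries. With the zeros taken as 3 counts over both libraries, Cdkn1c was at least 129-fold lower in tdTomato-positive GFP than in tdTomato-positive Thy1.1 cells (edgeR adjusted p = 0.00292). The call held in all 8 fits that left out a library.

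Rb1, the gene of the retinoblastoma protein, was at 374 and 372 CPM in tdTomato-positive GFP cells, 219 and 232 CPM in tdTomato-positive Thy1.1 cells, and, without tdTomato, 304 and 283 CPM with GFP and 226 and 206 CPM with Thy1.1. Both GFP populations lay above all Thy1.1 libraries, and the tdTomato-positive GFP pair above the tdTomato-negative one. The log2 fold change in tdTomato-positive cells was 0.73 ± 0.09 (n = 2 each; edgeR adjusted p = 0.00292), called in all 8 fits that left out a library. Reads of this row are not all certain to be Rb1. Its exons overlap 408 bases of Lpar6, a lysophosphatidic acid receptor gene on the opposite strand within the Rb1 locus, and 488 bases of Rcbtb2, and the kit does not mark strand. Lpar6 was at 221 and 212 CPM in tdTomato-positive GFP, 103 and 114 in tdTomato-positive Thy1.1, 121 and 87.2 in tdTomato-negative GFP, and 68.6 and 60.7 in tdTomato-negative Thy1.1 cells. It thus followed an order close to that of Rb1. With every Lpar6 count taken off, an extreme case that leaves Rcbtb2 aside, Rb1 was left at 153 and 160 CPM in tdTomato-positive GFP and 116 and 118 CPM in tdTomato-positive Thy1.1 cells, a log2 fold change of 0.42 ± 0.10 (n = 2 each; edgeR adjusted p = 0.0258).

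Cdkn1a is the gene of p21 and a target of p53, and its exons share 273 bases with AC167363.2 on the opposite strand. Cdkn1a showed a wide spread within the Thy1.1 populations. It was at 20.8 and 16.7 CPM in tdTomato-positive GFP cells and at 4.22 and 5.08 CPM in tdTomato-negative GFP cells. In tdTomato-positive Thy1.1 cells it was at 0.327 and 2.29 CPM (16 and 100 counts), and its unmarked Thy1.1 values were 0.148 and 2.57 CPM (7 and 110 counts). The GFP libraries lay above all Thy1.1 libraries, and the low value in each Thy1.1 population was library 1. Its log2 fold change in tdTomato-positive cells of 3.84 ± 1.24 missed the threshold with edgeR (n = 2 each; adjusted p = 0.0772), whereas DESeq2 gave 3.82 with an adjusted p of 0.00136. Over the 8 fits that left out a library, edgeR's adjusted p ran from 0.038 to 0.298, with 2 calls, without tdTomato-negative Thy1.1 library 1 or 2 (0.038 and 0.0381). The log2 fold change was 3.00 without tdTomato-positive Thy1.1 library 1 and 5.83 without library 2, so its size rests on single libraries.

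Cdkn1b, the gene of p27, ranged only from 20.1 to 35.2 CPM over the 8 libraries. It was at 25.5 and 30.0 CPM in tdTomato-positive GFP and 35.2 and 27.5 CPM in tdTomato-positive Thy1.1 cells, which overlapped. The log2 difference was -0.18 ± 0.23 (n = 2 each; edgeR adjusted p = 0.668).

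The make-up of the Cip/Kip family varied between the populations. The family sum was 11.4 ± 0.0707 RPKM (mean ± SD, n = 2) in tdTomato-positive GFP and 9.57 ± 0.615 in tdTomato-positive Thy1.1 cells, against 8.6 ± 1.08 and 6.95 ± 0.537 in tdTomato-negative GFP and Thy1.1 cells. Cdkn1a made up 46.4% ± 6.72 of it in tdTomato-positive GFP cells, 15.4% ± 3.89 in tdTomato-negative GFP cells, 3.98% ± 4.34 in marked Thy1.1 cells and 5.25% ± 6.52 in unmarked ones. Cdkn1c made up 0%, 10.4% ± 4.5, 24.4% ± 3.18 and 26.4% ± 5.02 in the same order. Cdkn1b had the largest mean share in each population, from 53.6% ± 6.72 in tdTomato-positive GFP to 74.1% ± 8.49 in tdTomato-negative GFP cells. These shares are described without a test.

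**Figure D2:**
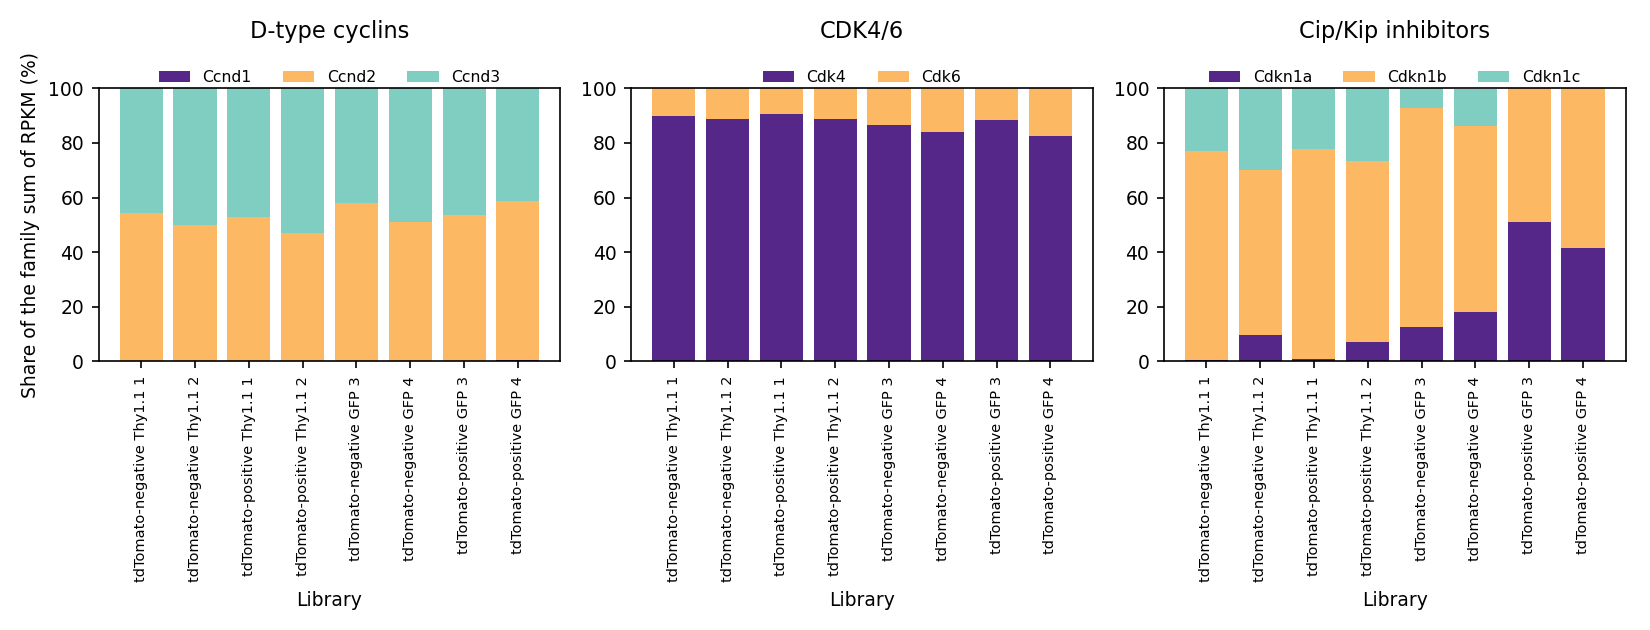
Share of each gene in the RPKM sum of its family in each library, for the D-type cyclins, Cdk4 with Cdk6, and the Cip/Kip inhibitors; each bar is 1 library and reaches 100%. Cdkn1a takes its largest shares and Cdkn1c takes none in both tdTomato-positive GFP libraries, while Ccnd2 with Ccnd3 fill the cyclin bars and Ccnd1 is too small to see.

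No cyclin or kinase passed in this comparison as counted. Ccnd2, a cyclin typical of lymphocytes, was at 642 and 712 CPM in tdTomato-positive GFP, 623 and 707 in tdTomato-positive Thy1.1, 856 and 843 in tdTomato-negative GFP, and 685 and 778 in tdTomato-negative Thy1.1 cells. Only the tdTomato-negative GFP pair lay above all other libraries. Ccnd3, the cyclin that developing T cells rely on, was at 521 and 471 CPM in tdTomato-positive GFP cells and spread from 523 to 755 CPM over the others, so this pair was the lowest of the 4. Among those others, libraries numbered 1 or 3 were at 523 to 578 CPM and those numbered 2 or 4 at 734 to 755 CPM. Ccnd1, which T cells use little, ranged from 0.572 to 2.66 CPM, and its tdTomato-positive GFP values were 1.49 and 2.66 CPM. The log2 differences between the reporters in tdTomato-positive cells were 0.03 ± 0.10 for Ccnd2, -0.35 ± 0.21 for Ccnd3 and 1.06 ± 0.91 for Ccnd1 (n = 2 each; edgeR adjusted p = 0.899, 0.307 and 0.495). Ccnd2 held 49.8% ± 4.03 to 55.8% ± 3.46 of the cyclin RPKM sum, with its lowest mean in tdTomato-positive Thy1.1 and its highest in tdTomato-positive GFP cells, and only these 2 populations had shares that did not overlap. Exons of Ccnd2 share 368 bases with the antisense gene 9330179D12Rik, those of Ccnd3 361 bases with Bysl, and those of Ccnd1 1100 bases with LTO1. Some reads of these cyclins are thus uncertain.

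Cdk4 was at 203 and 178 CPM in tdTomato-positive GFP and 173 and 181 CPM in tdTomato-positive Thy1.1 cells, and at 161 to 179 CPM in the 4 tdTomato-negative libraries. These values overlapped, with a log2 difference in tdTomato-positive cells of 0.11 ± 0.11 (n = 2 each; edgeR adjusted p = 0.559). Exons of Cdk4 share 641 bases with Tspan31. With all Tspan31 counts taken off, the difference was 0.53 ± 0.13 (edgeR adjusted p = 0.0277), so the call depends on how shared reads are assigned. Cdk6 was at 114 and 161 CPM in tdTomato-positive GFP, 121 and 133 in tdTomato-negative GFP, 76.0 and 99.6 in tdTomato-positive Thy1.1, and 80.3 and 89.6 in tdTomato-negative Thy1.1 cells. Exons of Cdk6 share 368 bases with the antisense gene Gm17590. For Cdk6, all 4 GFP libraries were above all 4 Thy1.1 libraries. Its log2 difference in tdTomato-positive cells was 0.65 ± 0.19 (n = 2 each; edgeR adjusted p = 0.0619, and 0.0127 with DESeq2). It was called in 1 of 8 fits that left out a library, at 0.86 without tdTomato-positive GFP library 3 (edgeR adjusted p = 0.031). Without tdTomato-positive GFP library 4 it was 0.37 (edgeR adjusted p = 0.221), and the highest adjusted p was 0.358, without tdTomato-positive Thy1.1 library 1. Cdk6 held 14.4% ± 4.17 and 14.8% ± 1.77 of the Cdk4 and Cdk6 RPKM sum in tdTomato-positive and tdTomato-negative GFP cells, and 10.3% ± 1.44 and 10.9% ± 0.778 in the matching Thy1.1 cells.

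The same reporters among tdTomato-negative cells gave no call. Here 0 of 10 genes passed in edgeR, where 0.164% of all genes did (23 genes, 0.0643% higher and 0.1% lower). At an unadjusted p under 0.05 it was 3 of 10, Cdk6, Cdkn2c and Rb1, against 11.9% of all genes, and DESeq2 called 2, Cdkn2c and Rb1. The log2 differences were 1.96 ± 0.32 for Cdkn2c, 0.44 ± 0.09 for Rb1 and 0.58 ± 0.19 for Cdk6 (n = 2 each; edgeR adjusted p = 0.0629, 0.104 and 0.29). Cdkn1c differed by -1.08 ± 0.66 and Cdkn1a by 1.78 ± 1.15 (edgeR adjusted p = 0.572 and 0.593). The libraries did not overlap for 7 of 10 genes, against 42.6% of all genes.

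The tdTomato mark within GFP cells compares marked with unmarked cells of the GFP reporter. It shares the tdTomato-positive GFP libraries with the comparison above, so calls of the 2 are not independent. Marked cells had more Cdkn2c and lacked Cdkn1c, and Rb1 was higher only as counted. With edgeR, 3 of 10 genes passed, 2 higher and 1 lower, against 12.6% of all genes, 6.24% higher and 6.4% lower. At an unadjusted p under 0.05 it was 4 of 10, against 29%. Cdkn2c rose by a log2 fold change of 1.61 ± 0.31 (n = 2 each; edgeR adjusted p = 0.018), but without tdTomato-negative GFP library 4 its adjusted p was 0.114 and without tdTomato-positive GFP library 3 it was 0.0703. Cdkn1c was at least 48.3-fold lower, with 0 against 163 counts (edgeR adjusted p = 0.00547), and held in all 8 fits that left out a library. Rb1 differed by 0.35 ± 0.09 (n = 2 each; edgeR adjusted p = 0.0431), and the call was lost whichever of the 8 libraries was left out, with adjusted p from 0.0607 to 0.182. With all Lpar6 counts taken off, Rb1 lay at 153 and 160 CPM in marked and 184 and 196 CPM in unmarked cells, a log2 difference of -0.28 ± 0.10 in the opposite direction (edgeR adjusted p = 0.102).

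The 7 other genes did not pass in this comparison. Ccnd2 and Ccnd3 were lower in marked cells without overlap, by -0.33 ± 0.10 and -0.43 ± 0.21 on the log2 scale (n = 2 each; edgeR adjusted p = 0.0679 and 0.221). Cdkn1a differed by 2.01 ± 1.14 (edgeR adjusted p = 0.288), although its libraries did not overlap. The libraries did not overlap for 7 of 10 genes, against 53.8% of all genes.

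The mark within Thy1.1 cells gave no call in edgeR for these genes or any other, with 0 of 10 and 0% of all genes tested. At an unadjusted p under 0.05 it was 2 of 10, Cdkn1b and Cdkn2c, against 7.6% of all genes (1063 genes). DESeq2 called 148 genes, of which 1 was among the 10, Cdkn2c. The log2 differences were 1.25 ± 0.32 for Cdkn2c and 0.55 ± 0.23 for Cdkn1b (n = 2 each; edgeR adjusted p = 0.463 and 0.652). The remaining 8 genes differed by -0.14 to 0.33 on the log2 scale. The libraries did not overlap for 4 of 10 genes, against 45% of all genes.

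Whether the effect of the mark differs between the reporters was tested by the interaction term. It was called for 1 of 10 genes, Cdkn1c (edgeR adjusted p = 0.0478), where 0.443% of all genes passed, 0.0929% higher and 0.35% lower. At an unadjusted p under 0.05 it was 1 of 10, against 12.8%. The mark went with a loss of all reads in GFP cells and with 4.54 and 4.96 against 3.07 and 4.48 CPM in Thy1.1 cells. This call was lost whichever of the 8 libraries was left out, with adjusted p from 0.0515 to 0.239. For Cdkn2c the interaction was 0.36 ± 0.44 and for Rb1 0.28 ± 0.13 (edgeR adjusted p = 0.801 and 0.398), so a difference between reporters in the effect of the mark was not shown for them.

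**Figure D3:**
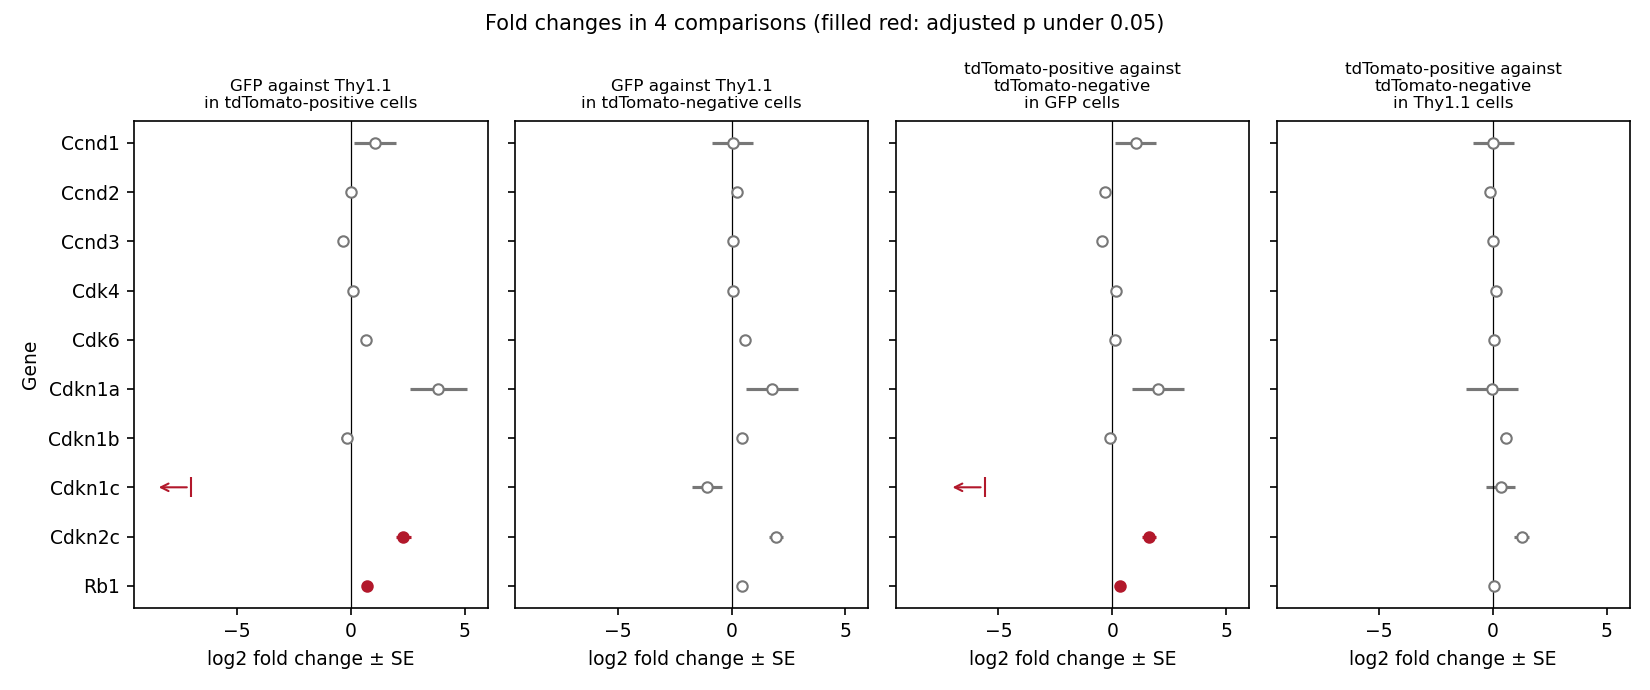
Log2 fold changes ± SE of the 10 genes in the 4 comparisons (2 libraries against 2 in each); red marks an adjusted p under 0.05 with edgeR, and red bars with arrows give the limit beyond which Cdkn1c lies. Cdkn2c, Rb1 and Cdkn1c are red in the comparisons that contain tdTomato-positive GFP cells, and none is red in the other 2.

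The genes around this switch were read in lists of pathway members, several of which share genes. In tdTomato-positive cells, the median log2 difference between GFP and Thy1.1 cells was -0.01 over all genes tested and 0.38 over the 10 genes. With edgeR, 8.01% of all genes were called higher and 6.82% lower. This share is the background for the edgeR counts from all 8 libraries in this comparison. DESeq2 and the fits that left out a library called other shares of all genes, so their counts need another background. Of 14 partner cyclins and kinases tested, 6 rose and 1 fell in GFP cells, with a median of 0.83. The S-phase cyclin Ccna2 was at 69.8 and 59.3 against 11.9 and 9.37 CPM (2.60 ± 0.22, edgeR adjusted p = 0.000886). The G1 to S cyclins Ccne1 and Ccne2 were at 51.9 and 50.8 against 9.33 and 9.07 CPM and at 51.7 and 41.2 against 10.9 and 11.1 CPM. All 3 rose without overlap between the populations. Without tdTomato-positive Thy1.1 library 1 or 2, 3 of the 14 rose, and the lower call held in 1 of 8 fits that left out a library.

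Of 10 E2F and DP factors, 6 rose and 0 fell, with a median of 0.67. E2f1, an activator of replication genes, was at 31.1 and 17.0 against 7.47 and 5.12 CPM, and E2f8, a repressor of the same family, at 19.6 and 12.6 against 1.72 and 1.14 CPM. Only 1 of the 10 rose without tdTomato-positive Thy1.1 library 1 or 2, and 3 without tdTomato-positive GFP library 3. Of 28 E2F target genes, 25 rose and 0 fell, with a median of 1.44. Mcm2, a subunit of the replicative helicase, was at 228 and 211 against 91.7 and 89.7 CPM (1.27 ± 0.11, edgeR adjusted p = 0.000842). Rrm2, which supplies deoxynucleotides, was at 253 and 179 against 19.1 and 15.1 CPM (3.66 ± 0.37, edgeR adjusted p = 0.00176). The 3 that did not pass were Cdc25a, Ung and Rbl1. Of 12 proliferation genes of later phases, such as Birc5 at 82.8 and 51.0 against 1.49 and 0.823 CPM, 10 rose and 0 fell, with a median of 3.35. Fewer calls were made when tdTomato-positive Thy1.1 library 1 or 2 was left out, to 12 and 14 of 28 E2F targets and to 6 and 4 of 12 proliferation genes, with 0 called lower in each case.

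Other genes named as CDK inhibitors were few. Of 3 tested, 0 passed with edgeR and 1 with DESeq2. Cdkn3, which belongs to neither the INK4 nor the Cip/Kip family, was at 17.4 and 6.61 CPM in tdTomato-positive GFP cells. In tdTomato-positive Thy1.1 cells it was at 2.74 and 0.251 CPM. The INK4 gene Cdkn2d was at 90.3 and 71.5 against 80.8 and 72.6 CPM. Cdkn2b was at 3.79 CPM in tdTomato-positive GFP library 3 and at no more than 0.434 CPM in any other, and Cdkn2a had at most 1 count in a library. The difference between Cdkn2c and these genes was not tested. Among 7 pocket protein and MuvB genes, 1 rose, Mybl2, at 28.9 and 21.2 against 3.54 and 3.59 CPM, and the Rb1 relatives Rbl1 and Rbl2 did not pass (0.22 ± 0.20 and -0.20 ± 0.14). Without tdTomato-positive Thy1.1 library 1 or 2, 0 of the 7 rose.

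Among 16 genes of the turnover of G1 regulators, 4 rose and 1 fell. Cks1b, the cofactor with which Skp2 marks p27 for degradation, was at 50.5 and 38.1 against 8.94 and 7.40 CPM (2.44 ± 0.25, edgeR adjusted p = 0.00176). Without tdTomato-positive Thy1.1 library 1 or 2, 1 of the 16 rose, and 2 rose without tdTomato-positive GFP library 3 or either tdTomato-negative Thy1.1 library. The lower call was lost whichever library was left out. Skp2 itself was at 11 and 9.32 against 13.1 and 9.39 CPM.

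Of 19 p53 targets tested, 1 rose and 1 fell with edgeR, a share near that of all genes (14.8%), with a median of 0.16. DESeq2 called 3 higher, and the fits that left out a library called 0 (without either tdTomato-positive Thy1.1 library) to 2 (without either tdTomato-negative Thy1.1 library). Trp53inp1 was at 382 and 506 against 280 and 288 CPM, and Fas, a death receptor gene, at 35.6 and 37.3 against 69.2 and 74.9 CPM. Mdm2, which encodes the p53 ubiquitin ligase, was at 145 and 169 against 125 and 117 CPM and did not pass.

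Genes of quiescence under FOXO factors, which also drive Cdkn1b, gave 0 higher and 8 lower of 15, with a median of -0.34. Tcf7, a transcription factor gene of naive and memory T cells, was at 348 and 446 CPM in tdTomato-positive GFP and 704 and 634 CPM in tdTomato-positive Thy1.1 cells (-0.75 ± 0.12, edgeR adjusted p = 0.00723). Irs2 was at 8.46 and 6.69 against 31.4 and 42.8 CPM. The count was 2 and 3 lower of 15 without tdTomato-positive Thy1.1 library 1 and 2, and 5 without either tdTomato-positive GFP library. Of 23 upstream regulators, 2 rose (Nfatc1 and Akt1) and 2 fell (Myc and Foxo3). Myc, a driver of Ccnd2 and Cdk4 transcription in many cells, was at 130 and 170 against 241 and 274 CPM (-0.78 ± 0.17, edgeR adjusted p = 0.0214), but neither it nor Foxo3 passed without tdTomato-positive Thy1.1 library 1 or 2. Higher calls in this list numbered 1 and 0 in those fits, and without tdTomato-positive GFP library 3 the list had 1 call in each direction.

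Neighbours of Cdkn1c and other imprinted genes were 0 higher and 6 lower of 11 tested, with a median of -0.70. Cd81, a tetraspanin gene of the same cluster, was at 24.8 and 24.1 CPM in tdTomato-positive GFP, 119 and 125 in tdTomato-positive Thy1.1, 71.9 and 73.5 in tdTomato-negative GFP, and 116 and 106 in tdTomato-negative Thy1.1 cells. Cd81 thus had the population order of Cdkn1c, with a log2 fold change of -2.32 between the reporters in tdTomato-positive cells (edgeR adjusted p = 0.000595). Igf2r, imprinted and on another chromosome, was at 80.1 and 60.6 against 281 and 259 CPM, and the imprinted factor Plagl1 at 0.0451 and 0.403 against 11.9 and 11.3 CPM. Kcnq1ot1, the long noncoding RNA of the Cdkn1c domain, and Kcnq1 count as 2 of the 6, but their deposited counts differed by at most 7 in any library, so they are 1 measurement. Kcnq1ot1 was at 41.7 and 44.1 against 67.0 and 72.3 CPM. Without tdTomato-positive Thy1.1 library 1 or 2 the count was 3 of 11.

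**Figure D4:**
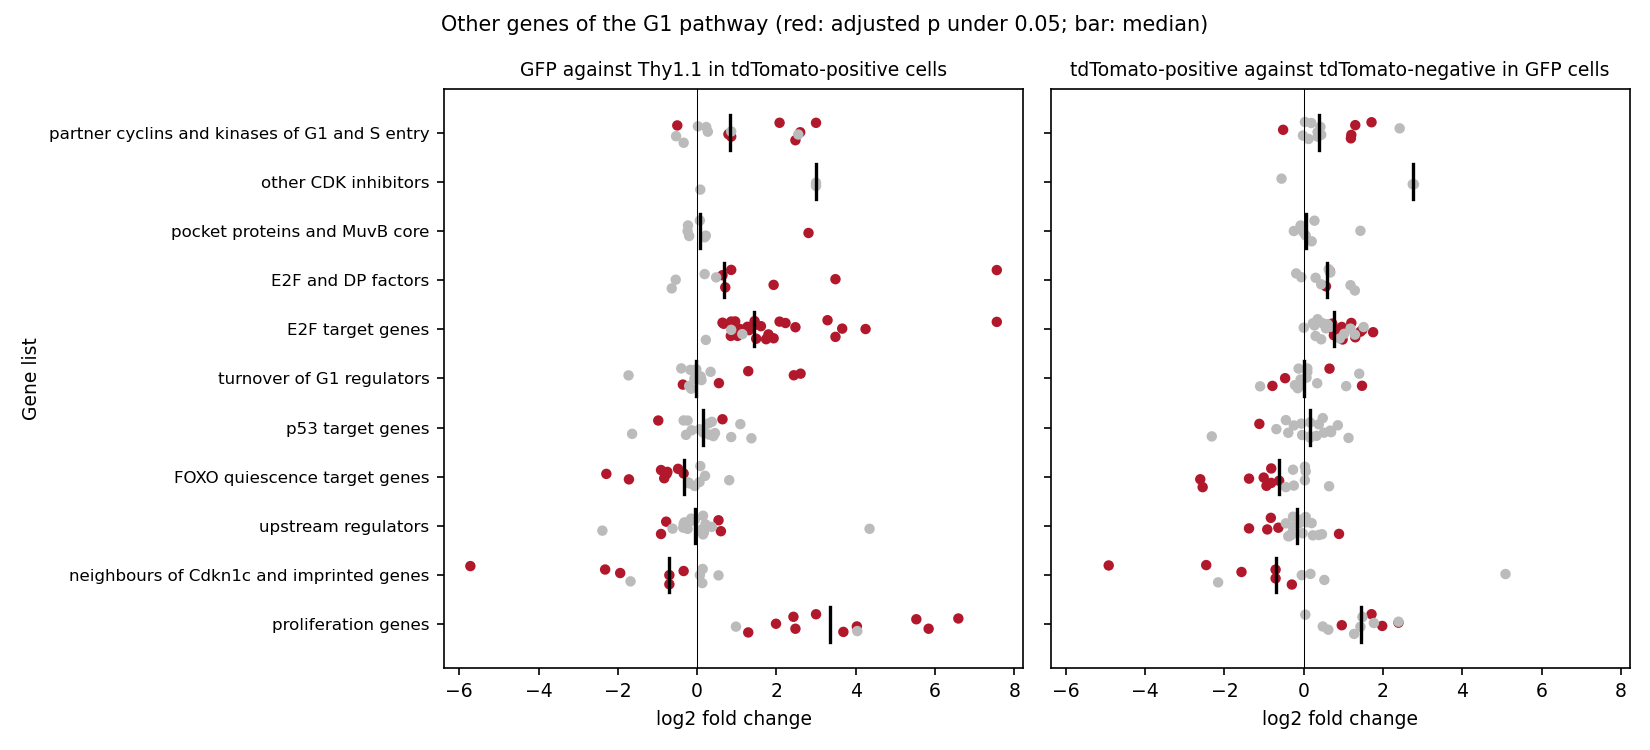
Log2 fold change of each tested gene of 11 pathway lists, comparing the reporters in tdTomato-positive cells and, in the other panel, for tdTomato-positive against tdTomato-negative in GFP cells; red points passed an adjusted p of 0.05 with edgeR and black bars are list medians. Most E2F target and proliferation genes lie to the right of 0, and FOXO and imprinted genes hold most of the red points to the left, in both panels.

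For the mark within GFP cells, edgeR called 6.24% of all genes higher and 6.4% lower over all 8 libraries, with a median of 0.03. Beside this, 12 of 28 E2F target genes rose and 0 fell (median 0.77), and 4 of 12 proliferation genes rose (1.46). Of 15 FOXO quiescence genes 8 fell (-0.62), and of 11 neighbours and imprinted genes 6 fell (-0.71). Fits that left out a library called other shares of all genes. Without tdTomato-negative GFP library 4, or tdTomato-positive GFP library 3, the E2F target count was 4 and 6, and the proliferation count was 0 in both. Over all 8 fits that left out a library, 4 to 12 E2F targets and 0 to 4 proliferation genes rose, and 5 to 8 FOXO and 3 to 5 imprinted genes fell. In the other 2 comparisons none of the 11 lists had a called gene in edgeR. Their E2F target medians were 0.53 between the reporters in tdTomato-negative cells and -0.12 for the mark in Thy1.1 cells.

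The genes whose levels followed each regulator most closely were found by the correlation of log2(CPM + 0.5) over the 8 libraries, among 9665 genes with a mean of at least 5 CPM. Cdkn2c was most like Itpa (Pearson's r = 0.998), the cytokine gene Il10 (0.994) and Rap1a (0.991). Rb1 was most like Ehd1 (0.995), Snx3 (0.988) and Stom (0.987), and Cdkn1a like Socs2 (0.969), Ccl20 (0.967) and Uevld (0.964). The 8 libraries form 4 pairs, and a value of at least 0.95 was reached by 133 genes for Cdkn2c, 197 for Rb1 and 28 for Cdkn1a. For Cdk4 the closest was Gskip (0.993), for Cdk6 Timm8a1 (0.968), for Ccnd2 Cnot2 (0.95), for Cdkn1b Zmpste24 (0.949) and for Ccnd3 Rbm7 (0.946). The last 2 had no gene at 0.95 or above, and Ccnd2 had 1.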

How the data were processed

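PolyA RNA was amplified with SMART-Seq v4, a kit that does not mark strand, and read as 50-base paired ends, per the labels' protocols. The table the authors deposited holds whole-number read counts for each gene, not normalized, per the file headers. The submitters' processing notes name DESeq. For aligner, counter, annotation and build: not given in the sources used here. A further 8 entries without a name held 0.0215% to 0.0264% of a library and were left out. GFP columns carry the numbers 3 and 4 and GFP titles 1 and 2, so these were matched to their population only.

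R 4.3.3 with edgeR 4.0.16 was used. Genes were kept with edgeR's filter at a minimum count of 10, scaled by TMM, and fitted in 1 robust quasi-likelihood model with 4 population means over 8 libraries (4 residual degrees of freedom, biological coefficient of variation 0.399). P-values were adjusted by Benjamini-Hochberg over 13989 genes at 0.05. SEs were derived from the F statistic. RPKM used the union of GENCODE M21 exons. Floors take 3 counts and cover counting error only. Paired libraries had r of 0.935 to 0.966 and differed beyond counting noise (chi-square 37.4 to 81.2 times its degrees of freedom). The pipeline was tested on simulated counts with the same dispersion for every gene, which tests the code and not the results above.

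The 10 genes and the gene lists were chosen with earlier results of these data known. All 10 genes were named whatever their values, with up to 4 genes of each list by adjusted p; Skp2, Mdm2, Cdkn2a, Rbl1, Cdc25a, Ung, Kcnq1, Kcnq1ot1 and the overlapping genes were chosen after their values were seen. Alternatives were RLE factors, library totals, other count filters, DESeq2 1.42.0, a replicate block, each library left out, and, chosen after seeing the data, an odd and even block and taking the counts of an overlapping gene off Ccnd2, Ccnd3, Cdk4 and Rb1.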

Additional observations from a re-analysis of the deposited data

Results flagged for a closer look

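For Cdkn1c the effect of the tdTomato mark differed between the reporters by the interaction term, with a fitted log2 difference of -9.64 ± 1.37 (2 libraries per population, edgeR adjusted p = 0.0478). The fitted size depends on the prior count, because both tdTomato-positive GFP libraries are at 0. The call was lost whichever library was left out, with adjusted p from 0.0515 to 0.239, and RLE size factors gave 0.0503. In counts, GFP cells went from 163 over both unmarked libraries to 0 over both marked ones, and Thy1.1 cells had 337 and 439.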

How the results depend on the processing

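With library totals as the scale, Ccnd2 between the reporters in tdTomato-positive cells was -0.0359, Ccnd3 for the mark in Thy1.1 cells 0.0269, and the interactions of Cdk4 and Cdk6 -0.0276 and -0.00104; calls in tdTomato-positive cells split into 886 higher and 1120 lower, against 1120 and 954. With no filter the Cdk4 interaction was -0.00518, and with a minimum count of 50 it was -0.0209 and Ccnd3 for the mark in Thy1.1 cells 0.00492. With the overlapping gene's counts taken off, Ccnd2 between the reporters in tdTomato-positive cells was -0.00168, Ccnd3 for the mark in Thy1.1 cells 0.00623, and the mark in GFP and Thy1.1 cells gave -0.0617 and -0.0882 for Cdk4 and -0.28 and -0.37 for Rb1. The cause was not tested beyond this.

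DESeq2 called 3164 genes and 5 members between the reporters in tdTomato-positive cells, 581 and 2 in tdTomato-negative cells, 2974 genes for the mark in GFP cells, 148 and 1 in Thy1.1 cells, and 568 genes for the interaction. No filter gave 98 genes and 1 member in tdTomato-negative cells and 109 interaction genes, a minimum count of 50 gave 98, 1 and 106, and RLE gave 0 members for the interaction.

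Leaving out each library, the calls ranged from 461 to 2139 genes between the reporters in tdTomato-positive cells (461 and 502 without tdTomato-positive Thy1.1 library 1 and 2), 0 to 74 in tdTomato-negative cells, 438 to 1830 genes and 1 to 2 members for the mark in GFP cells, and 0 to 105 genes and 0 members for the interaction. Log2 ranges that crossed 0 were, between the reporters in tdTomato-positive cells, -0.0906 to 0.119 for Ccnd2 and -0.00639 to 0.198 for Cdk4. In tdTomato-negative cells they were -0.78 to 0.57 for Ccnd1, -0.14 to 0.29 for Ccnd3 and -0.0086 to 0.146 for Cdk4. For the mark in GFP cells they were -0.17 to 0.34 for Cdk6 and -0.30 to 0.19 for Cdkn1b, and in Thy1.1 cells -0.0354 to 0.0674 for Ccnd1, -0.29 to 0.24 for Ccnd3, -0.16 to 0.25 for Cdk6, -2.04 to 3.11 for Cdkn1a and -0.00651 to 0.143 for Rb1. For the interaction they were -0.0629 to 0.127 for Cdk4, -0.21 to 0.29 for Cdk6, -1.11 to 4.05 for Cdkn1a and -0.11 to 0.66 for Cdkn2c.

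Over 13989 genes, deviations of libraries of the same number were hardly correlated, at 0.056 between the GFP and 0.0509 between the Thy1.1 populations. Across reporters, where no number is shared, the correlations were 0.0325 to 0.0524. A correlation over all genes cannot exclude an effect of library number on some of them. Ccnd3 and Cdkn1a were higher in the higher-numbered library of both Thy1.1 pairs and the tdTomato-negative GFP pair. In the tdTomato-positive GFP pair both genes were lower there. What libraries of the same number share was not tested. A replicate block within reporter, and an odd and even block over both, each called 5 members between the reporters in tdTomato-positive cells, adding Cdkn1a and Cdk6, and 0 for the interaction. The 2 blocks called 78 and 39 genes in tdTomato-negative cells, the first called 5 members for the mark in GFP cells, and Cdkn1a for the mark in Thy1.1 cells was 0.36 and 0.0788 with them. In the lists, each block called 1 other CDK inhibitor higher between the reporters in tdTomato-positive cells, and the first called 4 p53 targets higher.

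With 4 residual degrees of freedom, 2 libraries per population and up to 17.3-fold spread within a pair for Cdkn1a, a missed threshold does not show equal levels. Without division by length, Cdk6 held 34.4%, 33%, 42.8% and 41.8% of its kinase pair in tdTomato-negative Thy1.1, tdTomato-positive Thy1.1, tdTomato-negative GFP and tdTomato-positive GFP cells.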
